A study of Bos taurus with 11 samples.

Results

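Cytosolic ribosomal proteins are the protein components of the ribosome that works in the cytoplasm. Their messenger RNAs were examined in the endometrium, the inner lining of the uterus, of 11 dairy cows. Members were the probe sets annotated with a single gene symbol of the RPL or RPS series, or with RPLP0, RPLP2 or RPSA, and for each gene the brightest probe set, by its mean over the 11 arrays, was kept. This gave 67 genes, drawn from 94 probe sets, among the 9155 genes with a named probe set. They comprised 42 proteins of the large 60S subunit and 25 of the small 40S subunit. RPLP1 was not analysed here. Signals are RMA values on the log2 scale, so a difference of 1 stands for a doubling of the signal. They were not compared between genes as amounts of RNA, because probe sets differ in their response.

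The cows were multiparous Holstein-Friesian animals whose parity averaged 4.7. They had given 6477 ± 354 kg of milk in the preceding lactation, and the kind of error is not given in the labels. Energy balance was set by feeding and milking from day 2 after calving. Mild negative energy balance (n = 5) was produced with free access to grass silage, 8 kg of concentrate and 1 milking each day. Severe negative energy balance (n = 6) was produced with 25 kg of silage, 4 kg of the same concentrate and 3 milkings each day. Crude protein was listed as 21% for both groups. Every animal was a recently calved cow in negative energy balance, so neither group was a balanced or non-lactating control. Tissue was taken at slaughter 14 ± 0.4 days after calving, and RNA of each cow was measured on its own Affymetrix bovine array. Replicates are therefore different cows, named here by group and number.

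The ribosome joins amino acids into protein, with decoding of the messenger on the small subunit and peptide bond formation on the large one. In mammals the messengers of its proteins begin with a terminal oligopyrimidine tract, the TOP motif, through which the mTOR pathway adjusts their translation to nutrients and growth signals. That control acts on how often the messengers are translated, which an expression array does not measure. Ribosomal proteins are among the most abundant transcripts of most mammalian cells, and their genes are normally expressed together.

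Most members lay at the top of the signal range. Of the 67 genes, 60 had a mean signal above 12 and 52 above 13. Members supplied 54 of the 106 probe sets on the array with a mean above 13, or 50.9%. Dim is used here for a mean under 5.52, below which the dimmest 40% of probe sets lie. 3 members were dim, namely RPL3L at 4.00, RPL37 at 4.60 and RPS19 at 5.16. The other 64 members had means between 9.68 and 13.89 and were above the limit in every cow. RPL37 and RPS19 encode core ribosomal proteins, and RPL3L is a paralog of RPL3 known from skeletal and heart muscle.

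Between severe and mild cows the 67 genes showed no difference that passed a test. In limma's fit 0 of 67 had an adjusted p under 0.05, against 0 of all 24016 probe sets, a background of 0%. At an unadjusted p under 0.05 the count was also 0 of 67, beside 1457 of 9155 genes, or 15.9%. Severe signals were higher for 33 members and lower for 34, and the median difference of severe minus mild was -0.0011 on the log2 scale. Over all genes 48.9% were higher and the median difference was -0.0038. The split was 13 higher and 54 lower after a second quantile normalization, with medians of -0.06 for members and -0.02 for all genes. It was 25 higher and 42 lower when arrays were scaled to the mean of the other genes, a uniform shift that set the medians of members and of all genes both at -0.03. In 0 of 67 members were the groups free of overlap, a property that 1.19% of all genes had.

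For the brightest probe set of each gene, under the deposited normalization, the intervals bound the size of difference these 11 cows allow. Some additional probe sets of the same genes, given below, had larger estimates. Member differences ran from -0.11 for RPL36A to 0.15 for RPS28, which are signal ratios of 0.926 and 1.11. All 67 of the 95% intervals included 0, 38 lay wholly within ±0.25 and 66 wholly within ±0.35 log2 units. The lowest bound of any interval was -0.36, for RPL37, and the highest 0.31, for RPS28, or ratios of 0.781 and 1.24. The smallest adjusted p of any member in limma's fit was 0.435. Quantile normalization inside RMA gives every array nearly the same distribution, so a shift common to every transcript would not be visible here. In whole tissue, fewer cells of a type and less RNA per cell cannot be told apart.

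**Figure D1:**
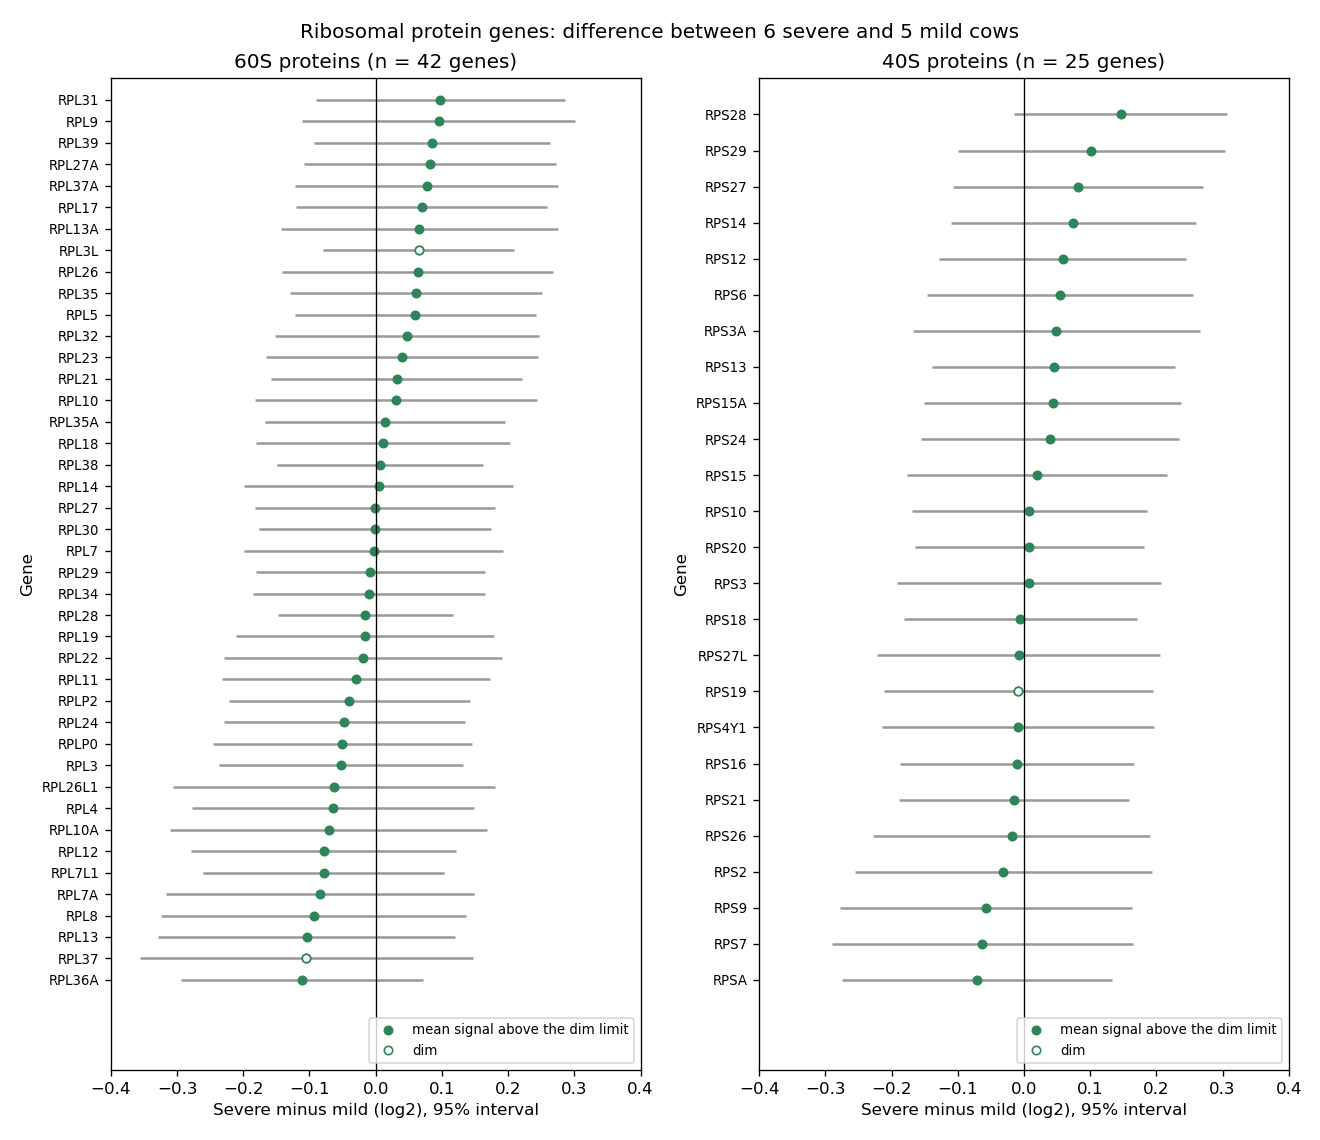
Severe minus mild difference in log2 signal for each of the 42 genes of the 60S subunit (left) and the 25 of the 40S subunit (right), with points at limma's estimate and lines for the 95% interval over 5 mild and 6 severe cows. Open points are the 3 dim genes; every line crosses 0, and the estimates lie between -0.11 and 0.15.

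Among the proteins of the large subunit, 19 of 42 were higher and 23 lower in severe cows, with a median difference of -0.0021. RPL36A, the lowest of all members, had log2 signals of 12.64, 12.50, 12.43, 12.45 and 12.17 in the mild cows. In severe cows its lowest signal was 12.22, its median 12.32 and its highest 12.45. Severe cows filled the lower part of the mild range, and the groups overlapped. The difference was -0.11 ± 0.08 (SE), with an adjusted p of 0.598 in limma's fit, and 1 of 6 severe cows exceeded the mild mean.

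RPL31, at the surface of the large subunit near the peptide exit, had signals of 13.63, 13.30, 13.43, 13.31 and 13.13 in mild cows. Severe cows ran from 13.36 through a median of 13.44 to 13.55. All 6 severe cows were above the mild mean of 13.36 ± 0.18 (SD, n = 5), yet inside the mild range. The difference was 0.10 ± 0.09, with an adjusted p of 0.659 by limma. RPL9 gave signals of 13.83, 13.39, 13.53, 13.42 and 13.24 in mild cows and a lowest, median and highest of 13.49, 13.58 and 13.67 in severe cows. Its SD was 0.22 among mild and 0.06 among severe cows, so the mild group had both the highest and the lowest values.

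RPL39, a very small protein in the wall of the exit tunnel, differed by 0.08 ± 0.08. RPL27A differed by 0.08 ± 0.09, RPL37A by 0.08 ± 0.09 and RPL17 by 0.07 ± 0.09. On the other side, RPL13 differed by -0.10 ± 0.10. Its mild signals were 13.40, 13.21, 13.20, 13.16 and 12.94. The severe cows spanned 12.76 to 13.26 with a median of 13.13, and 1 of them, severe 4, was the lowest of all 11 cows. RPL8, RPL7A and RPL12, with differences of -0.09 ± 0.11, -0.08 ± 0.11 and -0.08 ± 0.09, had estimates smaller than their standard errors.

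RPL5 and RPL11 form, with 5S ribosomal RNA, the particle that binds MDM2 and so stabilises p53 when ribosome assembly is disturbed. RPL5 read 13.95, 13.60, 13.72, 13.61 and 13.50 in mild cows, and 13.63, 13.74 and 13.85 as lowest, median and highest in severe cows. RPL11 read 13.91, 13.59, 13.62, 13.55 and 13.44 in mild cows, and 13.41, 13.62 and 13.75 in severe cows. For both genes the mild cow numbered 1 was the highest of all, and the groups overlapped throughout. Their differences were 0.06 ± 0.08 and -0.03 ± 0.09.

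RPLP0 and RPLP2 belong to the stalk, the flexible arm of the large subunit that recruits and activates translation factors. RPLP0, often used as a reference gene in quantitative PCR, had signals of 13.91, 13.54, 13.65, 13.61 and 13.39 in mild cows. Severe cows had a lowest of 13.45, a median of 13.59 and a highest of 13.67. The difference was -0.05 ± 0.09, with a 95% interval of -0.25 to 0.15. RPLP2 differed by -0.04 ± 0.08. A bright additional probe set of RPLP0 followed the chosen one across cows within groups with r = 0.915 (n = 11).

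Of the proteins of the small subunit, 14 of 25 were higher and 11 lower in severe cows, with a median difference of 0.0079. RPS28, which lies near the messenger's exit channel, had the largest estimate of the family and its smallest p. Its mild signals were 10.28, 10.28, 10.23, 10.16 and 10.25. In severe cows the lowest was 10.19, the median 10.43 and the highest 10.51. The mild cows were tightly grouped, with an SD of 0.05, and 5 of 6 severe cows were above the mild mean, while severe 3 and severe 1 lay within the mild range. The difference was 0.15 ± 0.07, with an adjusted p of 0.435 and an unadjusted p of 0.0709 in limma's fit across all probe sets.

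RPS29, a small zinc-binding protein, read 14.07, 13.64, 13.79, 13.69 and 13.60 in mild cows. Severe cows ran from 13.71 to 14.00 with a median of 13.87, and the difference of 0.10 ± 0.09 had an adjusted p of 0.669 by limma. A single mild cow was above every severe cow, and 3 mild cows were below every severe cow. RPS27 and RPS14, also of the small subunit, differed by 0.08 ± 0.09 and 0.07 ± 0.08. RPSA, the ribosomal protein also known as a laminin receptor, had signals of 13.66, 13.53, 13.52, 13.40 and 13.21 in mild cows and 13.22, 13.44 and 13.55 as lowest, median and highest in severe cows. Its difference was -0.07 ± 0.09.

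RPS6, the substrate of the S6 kinases below mTOR, had signals of 13.75, 13.35, 13.48, 13.41 and 13.19 in mild cows. Its severe signals had a lowest of 13.42, a median of 13.48 and a highest of 13.61. The difference was 0.05 ± 0.09, and the SD was 0.20 among mild and 0.07 among severe cows. The array reads the messenger of RPS6 and not the phosphorylation by which its protein is usually followed.

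The split of signs differed with signal height inside the family. Of the 52 members with a mean above 13, 31 were higher and 21 lower in severe cows, with a median of 0.0099. Of the 15 members at or below 13, 2 were higher and 13 lower, with a median of -0.06. The 2 were RPS28 and the dim RPL3L, and 3 of the 15 were dim. None of these differences passed a test. Bright genes outside the family also leaned to higher signals in severe cows. Of 23 other genes above 13, 16 were higher and 7 lower, with a median of 0.04. Of 104 other genes above 12, 59 were higher and 45 lower, with a median of 0.03. Over all genes 48.9% were higher.

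The spread between cows is given as a description, with no test between gene groups. The pooled SD within groups had a median of 0.141 log2 units over the 67 members, against 0.190 over all 9155 genes and 0.209 over the 104 other genes with a mean above 12. That median was 0.174 over the 23 other genes with a mean above 13, the range in which 52 members lay. Related lists came close to the members, at 0.145 for mitochondrial ribosomal proteins, 0.137 for initiation factors and 0.146 for non-ribosomal TOP transcripts. Elongation and termination factors had 0.169 and ribosome biogenesis genes 0.203. Among members the pooled SD was smallest for RPL28 at 0.0676, the dim RPL3L at 0.0842 and RPL38 at 0.0974. It was largest for the dim RPL37 at 0.196, for RPL26L1 at 0.188 and for RPL10A at 0.184. RPL28 read 12.98, 12.94, 12.86, 12.78 and 12.78 in mild cows and 12.81, 12.86 and 12.91 as lowest, median and highest in severe cows. RPL10A read 12.88, 12.70, 12.59, 12.63 and 12.32 in mild cows and 12.22, 12.62 and 12.68 in severe cows. The low value of RPL10A in severe cows came from severe 4, the cow that was also lowest for RPL13, RPL4, RPL11 and RPL12.

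Much of that spread was shared among members. After removal of the group means, the chosen probe sets of pairs of members had a median correlation of 0.83 over the 11 cows. Of the 2211 pairs 93.5% were above 0. The median was 0.81 within the 60S proteins and 0.87 within the 40S proteins. In the same cows it was 0.40 for the 104 other genes above 12, 0.36 for 66 mitochondrial ribosomal proteins and 0.42 for 53 genes of ribosome biogenesis. It was 0.54 for 16 TOP transcripts outside the RPL and RPS series. Over the other lists read here it ran from -0.05 for the integrated stress response to 0.85 for macrophage markers. Smooth muscle markers and cell division genes both had 0.80. The leading principal component of the centred member values held 72.7% of their variance and the next one 13.5%. All these correlations share the same 11 arrays and their normalization, and are given as descriptions.

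A pair of mild cows carried much of it. Mild 1 was the highest cow for 61 of 67 members and mild 5 the lowest for 54. The member mean, taken for each cow after subtracting each gene's mean over all cows, was 0.25 in mild 1, -0.04 in mild 2, 0.02 in mild 3, -0.05 in mild 4 and -0.19 in mild 5. In severe cows it was 0.04, -0.03, -0.06, -0.04, 0.00 and 0.10 for numbers 1 to 6. Both extremes belonged to the mild group, whose SD was 0.16 against 0.06 in the severe group. Without mild 1 and mild 5 the median correlation between members was 0.53. It was then 0.27 for the 104 other genes above 12 and 0.14 for the TOP transcripts outside the family. Macrophage markers kept 0.86, smooth muscle markers 0.78 and cell division genes 0.75.

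**Figure D2:**
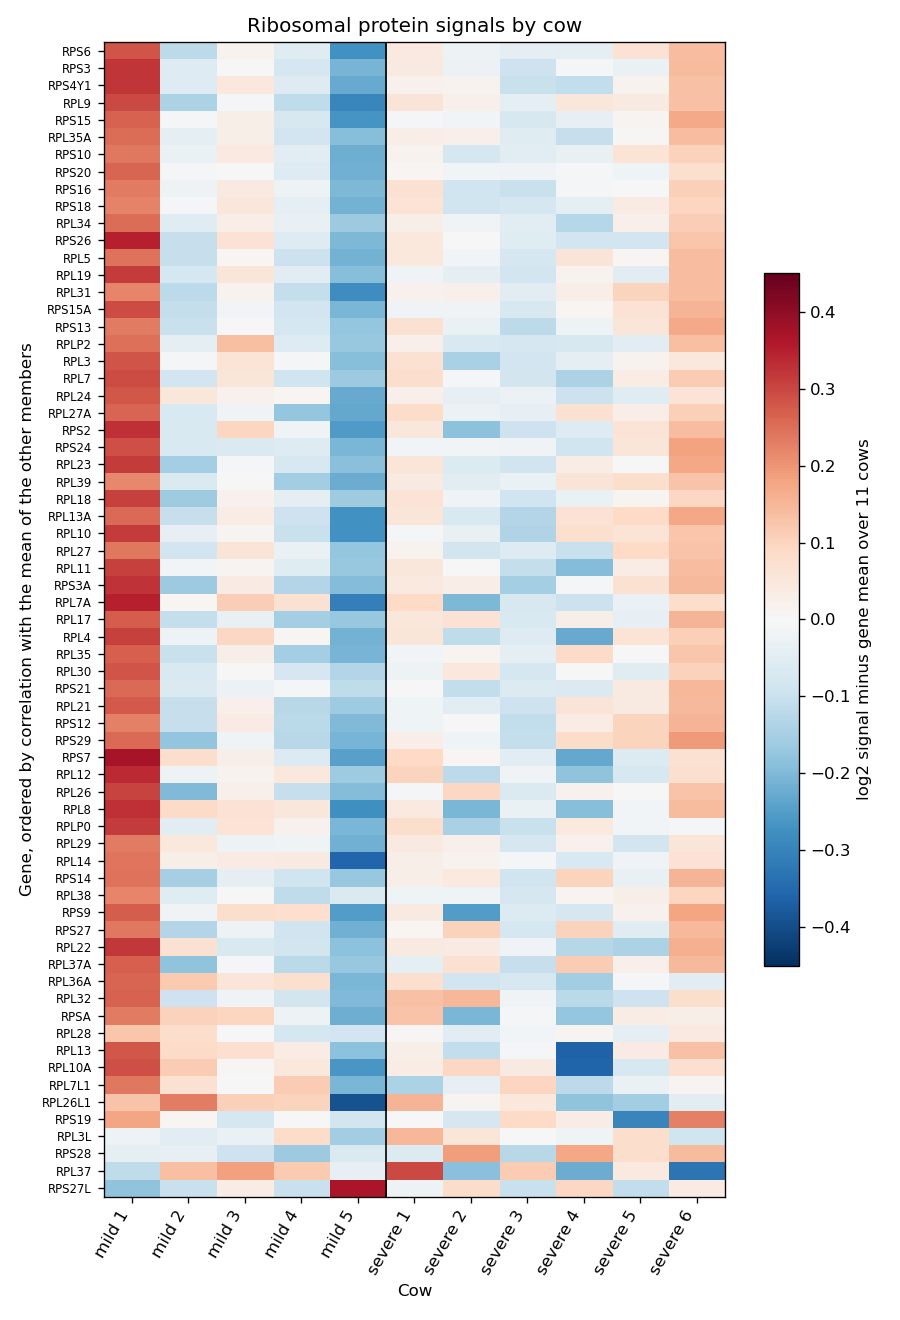
Log2 signal of each of the 67 members in each cow minus that gene's mean over the 11 cows, red for above and blue for below, with the black line between the 5 mild and 6 severe cows. Rows run from the gene closest to the mean of the other members (RPS6) to the one farthest from it (RPS27L); mild 1 is red and mild 5 blue in almost every row, and the last rows depart from that pattern.

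Leaving out either cow moved the signs of the comparison. Without mild 1, 56 of 67 members were higher in severe cows, the median difference was 0.07 and 6 reached an unadjusted p under 0.05, namely RPS29, RPL9, RPL31, RPL27A, RPL17 and RPL39. All 6 were higher in severe cows, and in the same fit 7.76% of all genes were higher at that threshold. The smallest adjusted p among members was then 0.397 in limma's fit. Without mild 5, 20 members were higher and the median was -0.04. With both left out 44 were higher, the median was 0.03 and 0 reached an unadjusted p under 0.05, beside 18.9% of all genes. 0 members passed the adjusted threshold in any of these fits.

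The member mean was compared with the top of each array. The highest value on the array was 14.57 in mild 1 and 14.04 in mild 5, and from 14.17 to 14.56 in severe cows. Its correlation with the member mean was 0.876 over 11 cows and 0.847 without mild 1 and mild 5. In 4 of the 11 cows that highest value was the signal of EEF1A1, an elongation factor whose messenger is itself of the TOP class. The 99th percentile of the array, a broader measure, correlated with the member mean at 0.623, and at 0.596 without those cows. The mean of the 104 other genes above 12 correlated with the member mean at 0.772, and at 0.564 without those cows. A further quantile normalization of the deposited values, which equalises the top of the arrays, brought the median SD of members to 0.0762 and their median correlation to 0.45. Members share the signal range in which these measures lie, and the part of array scale in the common pattern was not tested beyond these values. The 3' minus 5' difference, averaged over control transcripts as a measure of RNA and labelling quality, had a correlation of -0.089 with the member mean.

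**Figure D3:**
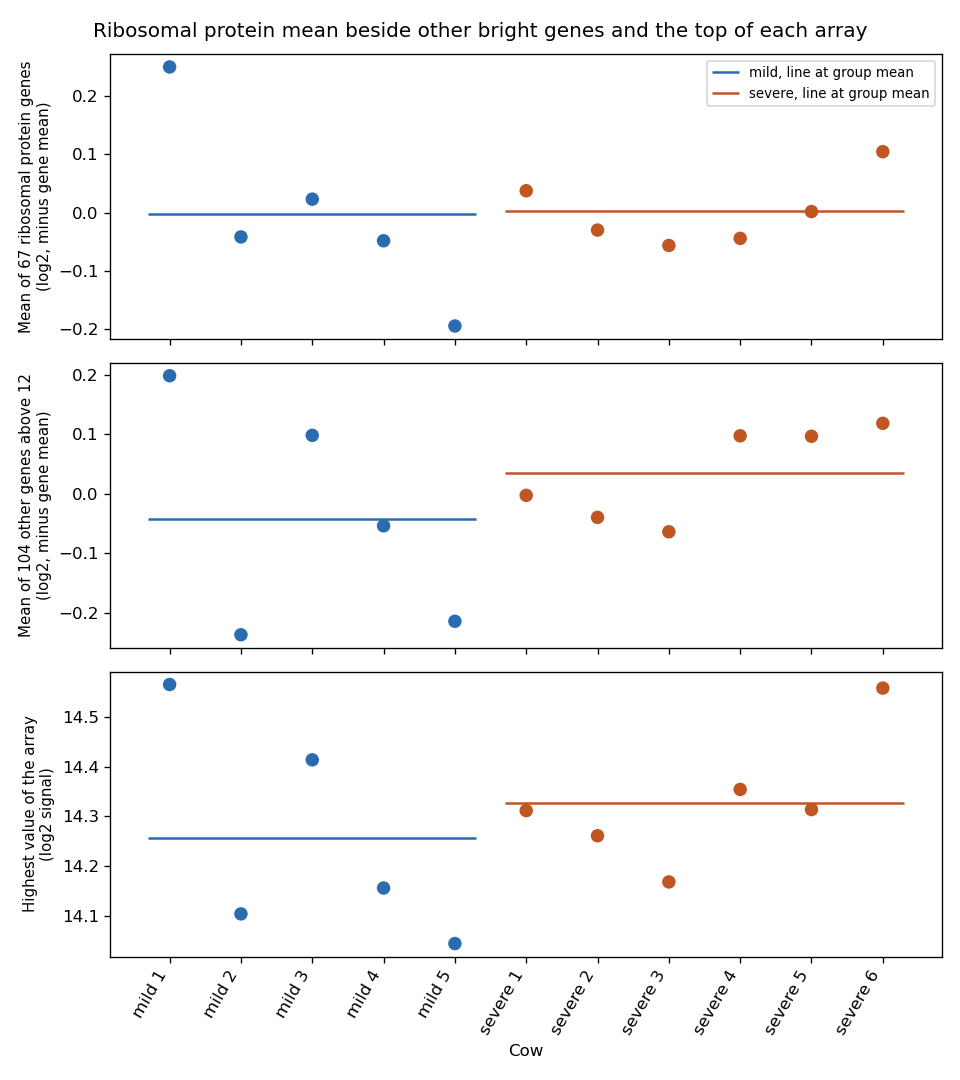
Values by cow, in log2 units, of the mean of the 67 ribosomal protein genes (top), the mean of 104 other genes with a mean signal above 12 (middle) and the highest value of the array (bottom); the upper panels show values minus each gene's mean over cows, and lines mark group means. Mild 1 is the highest point in all panels, at 0.25, 0.20 and 14.57, and mild 5 is the lowest in the top and bottom panels, at -0.19 and 14.04.

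Members were also set against their own mean, by subtracting the mean of the 67 genes from each array, a scaling chosen after the cow pattern was seen. The median SD of members was then 0.0569. Again 0 members passed at an adjusted p under 0.05 or at an unadjusted p under 0.05, beside 9.86% of all probe sets at the latter, 4.9% higher and 4.96% lower. The smallest adjusted p of a member was 0.663 in limma's fit. On this scale RPL39 was the single member whose groups did not overlap, beside 0.863% of all genes. Relative to the member mean it read 0.57, 0.58, 0.58, 0.50 and 0.58 in mild cows and from 0.59 to 0.71 in severe cows, a difference of 0.08 ± 0.07 with an adjusted p of 0.773.

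Some members departed from the common pattern. The correlation with the mean of the other members was 0.986 for RPS6, 0.983 for RPS3 and 0.980 for RPS4Y1, and above 0.6 for 61 of the 67 genes. It was 0.50 for RPL26L1, 0.48 for the dim RPS19, 0.18 for the dim RPL3L, 0.12 for RPS28, -0.22 for the dim RPL37 and -0.64 for RPS27L. All 3 dim members are thus in the last 6, together with RPS28 and the paralogs RPL26L1 and RPS27L.

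RPS27L is a paralog of RPS27 known as a direct target of p53. It read 10.61, 10.69, 10.83, 10.69 and 11.16 in mild cows. Severe cows had a lowest of 10.68, a median of 10.80 and a highest of 10.89. At the extremes the order was the reverse of the family's, because mild 5 was the highest cow and mild 1 the lowest. The group difference was -0.01 ± 0.10. RPS27 read 13.79 in mild 1 and 13.34 in mild 5, the highest and lowest of its 11 values.

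The genes of the MDM2 and p53 list, fixed for the surveillance of ribosome assembly, were read beside it. RPS27L correlated with the mean of the 8 measured genes of that list at 0.81 over 11 cows and at 0.71 without mild 1 and mild 5. The corresponding values with the mean of the other ribosomal proteins were -0.64 and 0.27, so the inverse relation to the family rested on those cows. The p53 list did not stand alone. Without those cows RPS27L correlated at -0.76 with cell division genes and at -0.75 with elongation and termination factors. CDKN1A, the p53 target that encodes the cell cycle inhibitor p21, read 8.23, 7.84, 8.31, 8.08 and 10.37 in mild cows and from 8.15 to 9.59 in severe cows. Mild 5 was the highest cow for both RPS27L and CDKN1A. Single genes of the list correlated with RPS27L from -0.03 for MDM2 to 0.80 for CDKN1A. The value for CDKN1A includes mild 5 and was not taken without that cow. Of the 8 genes, 6 were higher and 2 lower in severe cows. An adjusted p under 0.05 was reached by 0 and an unadjusted one by 2, beside 8.45% of all genes higher at that threshold. Those 2, both higher, were TP53INP1, at 0.45 ± 0.13, and FAS, at 0.55 ± 0.19, and MDM2 itself was dim.

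**Figure D4:**
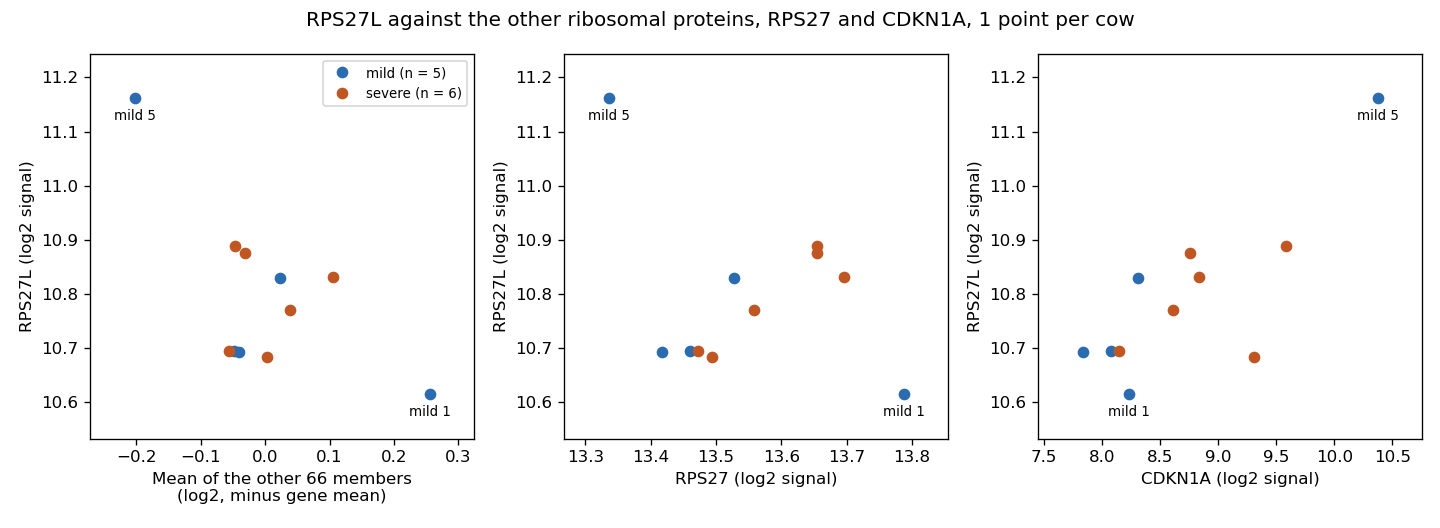
RPS27L log2 signal on each vertical axis against the mean of the other 66 members (left), RPS27 (middle) and CDKN1A (right), all in log2 units with 1 point per cow, blue for 5 mild and orange for 6 severe cows. Mild 5 has the highest RPS27L signal, 11.16, with the lowest member mean and the highest CDKN1A signal, 10.37; mild 1 has the lowest RPS27L signal, 10.61, with the highest member mean.

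The other paralogs also differed by less than their spread. RPL26L1, a near copy of RPL26, read 10.05, 10.16, 10.03, 10.03 and 9.53 in mild cows and 9.75, 9.91 and 10.08 as lowest, median and highest in severe cows. Its difference was -0.06 ± 0.11. RPL7L1, which resembles RPL7, differed by -0.08 ± 0.08 with mild signals from 9.48 to 9.92. RPL3L differed by 0.06 ± 0.07 at a dim signal. RPS4Y1, named as in the annotation and related to RPS4X, differed by -0.01 ± 0.09 at a mean of 13.42. All animals were female, so despite the name this signal cannot come from a Y chromosome. Near-identical copies and processed pseudogenes are numerous in this family. Which copies each probe set detects was not tested, and 13 chosen probe sets carry the _a_at suffix and 2 the _s_at suffix of sets that can match several transcripts.

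For 18 members the array held more than 1 probe set, 27 in addition to those chosen, of which 6 were dim. These additional sets often followed the cows differently from the chosen one. Their median correlation with the chosen set of the same gene was 0.17 within groups over 11 cows, and in 9 genes some set had the opposite sign. The 9 were RPL3, RPL7, RPL9, RPL10, RPL21, RPL32, RPS15A, RPS27L and RPS4Y1. An unadjusted p under 0.05 was reached by 4 of the 27 additional sets, 1 higher and 3 lower, and an adjusted one by 0. Over all probe sets 12.8% reached the unadjusted threshold, 6.97% higher and 5.88% lower.

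The 4 sets belonged to RPL7L1, RPL21 and RPL26. Those of RPL7L1 differed by -0.30 ± 0.08 and -0.32 ± 0.13, with adjusted p of 0.294 and 0.355 in limma's fit, beside -0.08 ± 0.08 for the chosen set. The second set of RPL21 differed by -0.40 ± 0.12, with an adjusted p of 0.296, at a mean signal of 7.55, and the chosen set by 0.03 ± 0.09. The second set of RPL26 differed by 0.22 ± 0.07, with an adjusted p of 0.308, at a mean of 5.81 close to the dim limit. These genes were picked out by their values among the additional sets. The bright second set of RPL10, in contrast, followed the chosen one with r = 0.979. When the mean over all probe sets of each gene was fitted, 33 of 67 members were higher and 34 lower, with differences from -0.23 to 0.17. RPL21 and RPL7L1 were then lower at an unadjusted p under 0.05 in limma's fit, and 0 members passed after adjustment. The share of all genes at that threshold was not taken in that fit.

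Other genes of the ribosome and of protein synthesis were read from lists fixed for the tissue and the question. FAU and RACK1, which encode further components of the 40S subunit, differed by 0.02 ± 0.09 and 0.05 ± 0.09. Their mean correlated with that of the members at 0.952 over the 11 arrays they share, and at 0.757 without mild 1 and mild 5. Transcripts with a TOP motif outside the RPL and RPS series numbered 16, with 10 higher, 6 lower, 0 at an unadjusted p under 0.05 and a median of 0.02. EEF1A1, the elongation factor that delivers aminoacyl-tRNA, belongs to them and differed by 0.07 ± 0.10. Initiation factors were 14 higher and 19 lower of 33, with a median of -0.03, and 5 lower at an unadjusted p under 0.05. The background at that threshold was 8.45% of genes higher and 7.46% lower. PABPC4, a poly(A)-binding protein, and EIF4G3, a scaffold of the cap complex, were the lowest in p among these, at -0.30 ± 0.10 and -0.25 ± 0.08. Elongation and termination factors were 4 higher and 6 lower of 10, with a median of -0.09.

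Mitochondrial ribosomal proteins and ribosome biogenesis genes had medians further from 0. Of 66 mitochondrial ribosomal proteins, which translate the genes of the mitochondrial genome, 8 were higher and 58 lower in severe cows. Their median was -0.13 and 17 were lower at an unadjusted p under 0.05, 0 after adjustment. MRPS36 and MRPL37 had the smallest p, with differences of -0.70 ± 0.16 and -0.34 ± 0.10 and adjusted p of 0.282 and 0.294 by limma. This list was taken by gene symbol. Whether each product, that of MRPS36 included, is part of the mitochondrial ribosome was not tested. Of 53 genes that build ribosomes in the nucleolus, 5 were higher and 48 lower, the median was -0.16, and 1 was higher and 12 lower at an unadjusted p under 0.05. NOP56, a core protein of box C/D particles, differed by -0.46 ± 0.14, and NHP2, of box H/ACA particles, by -0.49 ± 0.15. The cytosolic members had a median of -0.0011, and the difference between the lists was not tested. The lists also lay in different signal ranges. Mean levels in mild cows were 12.82 for the cytosolic members, 8.29 for mitochondrial ribosomal proteins and 8.07 for biogenesis genes. The part of signal height in the difference was not tested.

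**Figure D5:**
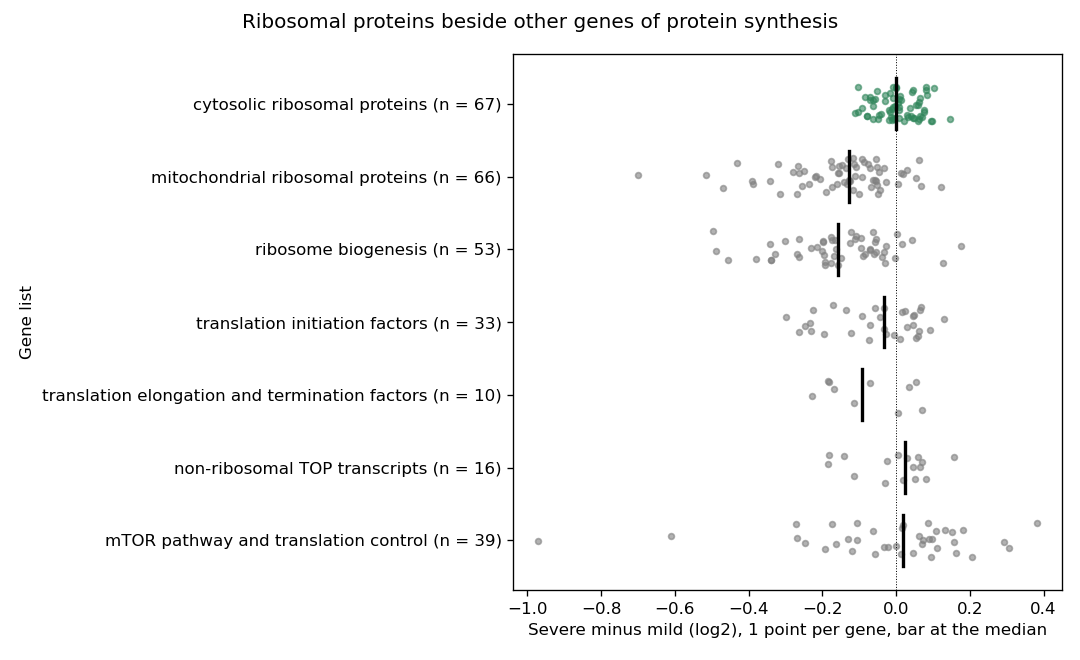
Severe minus mild difference in log2 signal, 1 point per gene, for the 67 cytosolic ribosomal proteins (green) and 6 other gene lists of protein synthesis (grey), with a bar at each list's median; vertical position within a list is arbitrary. The green points lie between -0.11 and 0.15 around a median of -0.0011, whereas the medians of mitochondrial ribosomal proteins and of ribosome biogenesis are -0.13 and -0.16. These lists lie in different signal ranges.

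These counts moved with single cows, as did the share of all genes at the same threshold. Lower mitochondrial ribosomal proteins at an unadjusted p under 0.05 ranged from 9 without mild 2, where 5.49% of all genes were lower at that threshold, to 30 without mild 5, where 11.5% were. For ribosome biogenesis the count was 5 without mild 1, beside 6% of all genes, and 19 without mild 5. After adjustment for the neutrophil score the counts were 3 and 0, in that order, beside 4.21% of all genes. The differences kept their direction in that fit, with 54 of 66 mitochondrial ribosomal proteins lower at a median of -0.11 and 38 of 53 biogenesis genes lower at a median of -0.11. In the same fit 52 of 67 cytosolic members were lower, and the median of all genes was -0.03. Neutrophil markers were higher in severe cows for 9 of the 11 measured, 8 at an unadjusted p under 0.05. Their mean level was 5.43 to 6.55 in mild and 6.72 to 8.71 in severe cows, with ELANE, FCGR3A, MPO and TREM1 dim. All 18 cell division genes were lower, with a median of -0.42. Because the neutrophil levels did not overlap between groups, the fit with that score cannot separate it from the regime. The part of cell composition in the mitochondrial and biogenesis counts was not tested.

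For the members the neutrophil score had a correlation of 0.093 with the member mean over 11 cows. With that score as a covariate 15 of 67 members were higher, with a median of -0.03, and 0 reached an unadjusted p under 0.05, beside 6.48% of all genes. The median of all genes in that fit was also -0.03. Epithelial markers, which check the labelled tissue, had a mean level of 7.38 to 8.15 in mild and 6.77 to 8.05 in severe cows, with 6 of 14 higher, 8 lower, and EHF and KRT8 dim. Stromal fibroblast markers were 6 higher and 8 lower of 14, with 0 dim. Macrophage markers were higher for 9 of 9, T and NK cell markers for 16 of 17, B and plasma cell markers for 6 of 6, endothelial markers for 7 of 10 and smooth muscle markers for 2 of 6. All 6 measured red blood cell genes were dim.

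Regulators of translation were higher and lower in similar numbers or higher more often. In the mTOR list 22 of 39 genes were higher and 17 lower, with a median of 0.02. At an unadjusted p under 0.05, 3 were higher and 2 lower, beside 8.45% and 7.46% of all genes. PRKAA1, a catalytic subunit of the energy sensor AMPK, differed by 0.38 ± 0.15 and IGF1R, the receptor for insulin-like growth factor, by 0.21 ± 0.08. Both had an adjusted p of 0.339 by limma. Their mild means, 5.83 and 5.52, were close to the dim limit. The largest differences of the list were lower, at -0.97 for PIK3R1 and -0.61 for RRAGD. In the integrated stress response, which limits translation through phosphorylation of eIF2, 9 of 13 genes were higher and 4 lower. ATF3, a stress-induced transcription factor, differed by 1.49 ± 0.30 with an adjusted p of 0.248 by limma. PSAT1, an enzyme of serine synthesis, differed by -1.41 ± 0.46 with an adjusted p of 0.308.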

How the data were processed

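The deposited values are log2 signals made with RMA, per the submitters' processing notes. RMA subtracts background, equalises arrays by quantiles and joins probes into probe sets. The log2 scale was read from the values, and the RMA version is not given in the sources used here. Of 24128 probe sets 112 controls were left out. Symbols came from a platform annotation, in which 13292 probe sets had 1 symbol, 86 several and 10638 none here, and RefSeq matched 13263 and renamed 0. Array medians were 6.20, and arrays correlated at 0.948 to 0.991. The number of arrays limits the precision.

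The difference of severe minus mild was fitted over all 11 arrays, two-sided and with no covariate, with lmFit and eBayes of limma 3.58.1 (R 4.3.3) with Benjamini-Hochberg adjustment over 24016 probe sets and a threshold of 0.05, and the procedure was tested on simulated data. Standard errors and intervals are limma's. The sources used here do not say which cows shared a block at allocation, nor any batch. Member correlations were taken after removal of group means; those of list means used all 11 values.

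Members and lists were chosen with earlier results of these data known. Named members were the 10 with the smallest p in each direction, paralogs, the 3 with the largest and the 3 with the smallest SD, RPLP0, RPLP2, RPSA, RPS6, RPL5, RPL11 and those with probe sets of opposite sign, and in each other list the 2 genes with the smallest p. Others are named after their values were seen, such as CDKN1A and EEF1A1. Alternatives concerned dim probe sets, normalization, scaling, eBayes settings, weights, covariates, probe set choice and single cows. Figures were drawn with matplotlib 3.10.9 in Python 3.11.15.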

Additional observations from a re-analysis of the deposited data

Results flagged for a closer look

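Of 78 checks for a cow apart from its group, run on the named members and means, 2 were positive. Both were in members also named for a large SD, which a single cow apart enlarges. The usual chance of about 1 in 20 is therefore no guide to this count. RPL10A read 12.22 in severe 4, where the nearest severe cow read 12.51 and the highest 12.68. RPL26L1 read 9.53 in mild 5, where the nearest mild cow read 10.03 and the highest 10.16. Mild 5 was the lowest cow for most members, and severe 4 was also the lowest for RPL13, RPL4, RPL11 and RPL12.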

How the results depend on the processing

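0 of the 67 members passed limma's adjusted threshold under any alternative run. The number higher in severe cows, 33 of 67, was 13 after a second quantile normalization (median -0.06), 15 after adjustment for the neutrophil score (all genes then had a median of -0.03), and 2 of 15 without members above 13. With each cow left out it ranged from 20 to 56 and the median difference from -0.04 to 0.07. Scaling to the other genes gave 25 higher, with the median of all genes at -0.03. The median SD of 0.141 was 0.0762 after the second normalization, 0.0827 without mild 1 and mild 5, 0.0569 on the scale of the member mean, and 0.0943 to 0.148 with each cow left out. The median correlation of 0.83 was 0.45 after the second normalization, 0.53 without mild 1 and mild 5, 0.012 on the scale of the member mean, and 0.45 without members above 13. Over all probe sets 0 passed in the reported comparison, 1 without mild 1 and mild 5, 16 without severe 1 and 2 without severe 3. Over the named members and alternatives, the sign differed in 62 of 831 values. Many of these members were named for a small p in the same comparison, which makes a change of sign less likely. Over all 67 members the sign differed for 32 with the neutrophil score and for 23 without mild 1. It differed for 20 after the second normalization, for 15 without mild 5 and for 13 or fewer in the other alternatives. The omission of mild 1 and mild 5 together, the 3' minus 5' covariate and the scale of the member mean were chosen after seeing the data. No paired analysis was possible because the numbers of the cows come from accession order and pair nothing across groups. Differences smaller than the intervals given were not detectable with 11 cows.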

Other observations

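Outside the family, the genes whose signals followed the member mean most closely within groups over the 11 cows were POMC (r = 0.992), HNRNPH1 (0.978), MFSD10 (0.960), ITGB5 (0.957) and FAU (0.947). POMC, named by the annotation for the pituitary hormone precursor, had a mean signal of 13.99. ITGB5, an integrin subunit, had a mean of 13.68. RACK1, a 40S component, followed with r = 0.939. OXT, the gene of oxytocin, was also in this group, with r = 0.944 at a dim mean of 5.13. The 10 genes were picked as the highest of all genes outside the family and share its arrays. Which transcripts the probe sets named POMC and ITGB5 detect was not tested.

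RPS27L had its highest correlations among the list means with the p53 list, at 0.81, and its lowest with initiation factors, at -0.81, which was -0.71 without mild 1 and mild 5. With ribosome biogenesis it was -0.69, and -0.74 without those cows. With cell division genes it was -0.63, and -0.76 without them. Over the 8 genes of the p53 list the correlations with RPS27L in 11 cows were 0.80 for CDKN1A, 0.78 for CCNG1, 0.61 for SESN1, 0.60 for GADD45A, 0.44 for TP53INP1, 0.34 for FAS, 0.14 for BAX and -0.03 for the dim MDM2. The second RPS27L probe set was dim, with a mean of 4.38, and differed by 0.34 ± 0.19.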
